A study of Mus musculus with 15 samples.

Results

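The genes of fatty acid oxidation and ketogenesis were followed in mouse liver tumours with and without deletion of Hmgb1 by Albumin-Cre and in normal liver. The set holds 38 genes, listed by name and found by symbol among the 23284 symbols of the count table, and all 38 passed the filter on low counts in each comparison. They fall into 8 steps, which are the regulator and its reporter targets, uptake and activation, the mitochondrial carnitine shuttle, mitochondrial beta-oxidation, mitochondrial electron transfer, peroxisomal oxidation, acyl-CoA thioesterases and ketogenesis. There were 6 tumours from mice with floxed Hmgb1 and Albumin-Cre (labelled Hgmb1Dhep, here Hmgb1-deleted tumours), 6 tumours from floxed mice for which no Cre is named (labelled Hgmb1fl/fl, here floxed tumours) and 3 normal livers of C57Bl/6 mice. Both tumour groups came from mice given the mutagen diethylnitrosamine (25 mg/kg) at the age of 15 days and then, from the age of 8 weeks, weekly doses of the liver toxin carbon tetrachloride (0.5 µl/g) during 15 weeks. No treatment and no floxed Hmgb1 is named for the normal livers. Against them, the effects of being a tumour, of treatment and of genotype or strain cannot be told apart. Albumin-Cre is driven by the promoter of a hepatocyte gene and can also recombine in bile duct cells, and in which cells of these tumours Hmgb1 was lost was not measured. The labels do not say which tumours came from the same mouse. If some did, the 6 tumours of a group stand for fewer mice and are not independent. The p-values could then be too small, and they may not hold for differences between mice. Part of the variation among libraries may also be technical.

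Long fatty acids are bound and activated to acyl-CoA in the hepatocyte, carried into mitochondria by the carnitine shuttle and shortened by repeated rounds of beta-oxidation, whose electrons leave through the electron transfer flavoprotein. Very long, branched and dicarboxylic chains are first shortened in peroxisomes. In fasting liver the acetyl-CoA made this way is turned into ketone bodies for other organs, and the nuclear receptor PPAR-alpha, encoded by Ppara, drives many genes of all these steps.

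Library totals were 18973246 to 26293378 counts in Hmgb1-deleted tumours, 20191452 to 30929442 in floxed tumours and 23193714 to 26997782 in normal livers, and levels are given as CPM, which is counts relative to the library total after scaling by TMM factors. Hmgb1 was at 9.59 to 17.8 CPM in Hmgb1-deleted tumours, at 23.3 to 31.8 CPM in floxed tumours and at 19.1 to 30.7 CPM in normal livers, so the tumour groups did not overlap (log2 fold change -0.90 ± 0.14, SE, adjusted p = 0.00509). Hmgb1 RNA thus remained in every Hmgb1-deleted tumour, and the group was at 0.537 times the floxed level. The 8 hepatocyte markers, among them Alb and Apoa1, were present in every library and summed to 71700 to 175000 CPM in Hmgb1-deleted tumours, 110000 to 286000 CPM in floxed tumours and 114000 to 140000 CPM in normal livers. Between the tumour groups 0 of these 8 passed in edgeR, while 3 had an unadjusted p under 0.05, all lower in Hmgb1-deleted tumours, and DESeq2 called 3 and voom 1 lower. Against normal liver, Tat and Cps1 were lower in both tumour groups, Pck1 in floxed tumours, and Apoa1 and Serpina1a were higher in floxed tumours. Of the markers of cholangiocytes, endothelial cells, macrophages, stellate cells, lymphocytes and neutrophils, Prom1 and Stab1 were lower in Hmgb1-deleted tumours and no other marker passed. Against normal liver, 2 of 6 cholangiocyte, 1 of 8 endothelial, 1 of 7 macrophage, 2 of 8 stellate, 4 of 8 lymphocyte and 2 of 3 neutrophil markers were higher in Hmgb1-deleted tumours and 1 stellate marker was lower, where 18.1% of all genes tested were higher. In floxed tumours 4 of 7, 2 of 8, 1 of 7, 1 of 8, 3 of 8 and 3 of 3 in the same order were higher, where 24.9% of all genes tested were. Cholangiocyte markers summed to 213 to 6120 CPM in Hmgb1-deleted tumours, 146 to 1780 in floxed tumours and 69.0 to 80.1 in normal livers. In the same order the sums were 231 to 577, 199 to 1720 and 239 to 304 for stellate cells. They were 168 to 327, 255 to 548 and 183 to 297 for endothelial cells, and 179 to 405, 131 to 474 and 199 to 303 for macrophages. Lymphocyte markers summed to 30.2 to 65.6, 23.7 to 72.4 and 16.8 to 18.4, and neutrophil markers to 10.1 to 17.6, 4.97 to 37.3 and 3.75 to 5.12. The part of these cell types in the changes below was not tested. In bulk tissue, fewer hepatocytes and less RNA per hepatocyte cannot be told apart. All libraries carried RNA of the Y-linked Ddx3y, at 55.1 to 98.5 CPM, and little Xist, at 0 to 0.985 CPM. Over 13779 tested genes outside the set, the root-mean-square distance of log2(CPM + 1) from the mean of the normal livers was 0.702, 0.712 and 0.767 in Hmgb1-deleted tumours 3, 4 and 6 and 0.978, 1.05 and 1.07 in tumours 1, 2 and 5. Floxed tumours lay at 1.004 to 1.23, so tumours 3, 4 and 6 were nearest to normal liver and 2 and 5 the farthest of their group, and counts are given with and without them.

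Against floxed tumours, Hmgb1-deleted tumours had more RNA of many enzymes of mitochondrial and peroxisomal oxidation, while Ppara, Cpt1a and Bdh1 did not pass the test. Of the 38 genes, 18 rose and 0 fell (edgeR quasi-likelihood test with Benjamini-Hochberg adjustment over all 13433 genes tested, threshold 0.05), where 4.45% of all genes tested were higher and 3.33% lower. With 0 falls called by edgeR, 0 also had an unadjusted p under 0.05 in that direction, and DESeq2 and voom called 0 falls and 25 and 22 rises. The rises came to 7 of 10 genes in peroxisomal oxidation, 3 of 5 thioesterases, 5 of 9 genes in mitochondrial beta-oxidation, 2 of 4 in the carnitine shuttle and 1 of 3 in electron transfer. In edgeR 0 of 3 genes of the regulator group and 0 of 3 of uptake and activation passed, nor did Bdh1 for ketogenesis. In uptake and activation 2 genes had an unadjusted p under 0.05 and DESeq2 called 2 and voom 1 higher, whereas the regulator group and Bdh1 had 0 by each of these rules. In either direction 7.78% of all genes tested were called. The log2 fold change was above 0 in 35 of the 38, against 52.5% of all genes tested. The median log2 fold change over the 38 genes was 0.76, beside 0.02 over all genes tested. In 13 of the 38 genes every Hmgb1-deleted tumour lay above every floxed tumour, which held for 2.61% of all genes tested, and in 0 every one lay below, which held for 2.32%. In total 598 genes of the table were higher and 447 lower, and scaling by library totals alone, which moved the median of all genes to 0.20, gave 982 and 257, with 29 of the 38 rising. No gene of the 38 that passed changed its direction under any scaling.

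**Figure D1:**
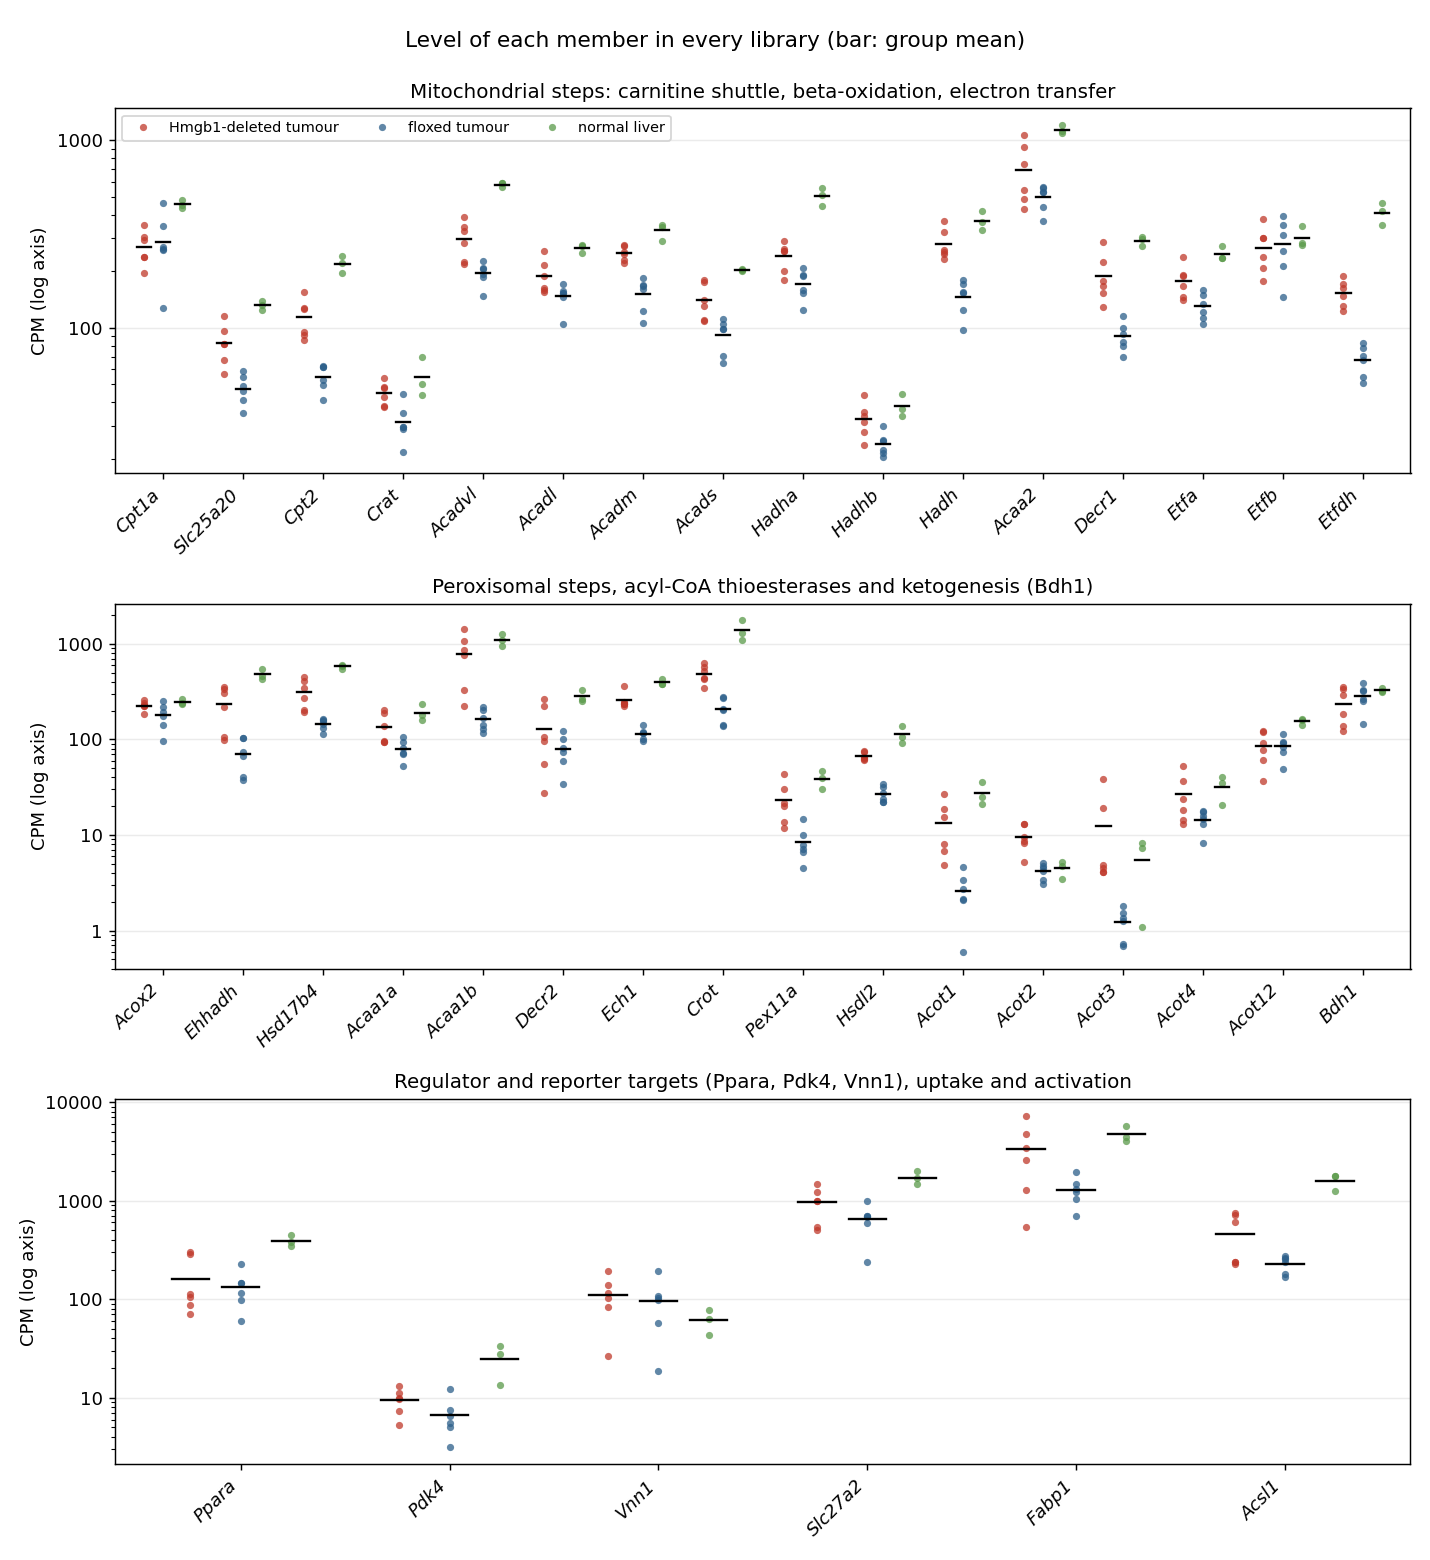
Level of each of the 38 genes in CPM (log axis) in every library, with Hmgb1-deleted tumours (6) left of floxed tumours (6) and normal livers (3); each point is a library and each bar a group mean. Etfdh, Ech1, Hsdl2 and Acaa1b show Hmgb1-deleted tumours wholly above floxed tumours, whereas the tumour groups overlap for Ppara, Cpt1a and Bdh1.

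The count of rises stayed between 15 and 19 when any 1 library was left out. Leaving out Hmgb1-deleted tumours 3 and 4 gave 11 rises, leaving out 3, 4 and 6 gave 8, and leaving out 2 and 5 gave 25. The 8 that passed without 3, 4 and 6 were Cpt2, Decr1, Etfdh, Acaa1b, Ech1, Hsdl2, Acot2 and Acot3. Acadvl and Acads lay close to the threshold and missed it when any of several libraries was left out, with adjusted p up to 0.101 and 0.116, and Pex11a missed it without Hmgb1-deleted tumour 4 (adjusted p = 0.0501).

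**Figure D2:**
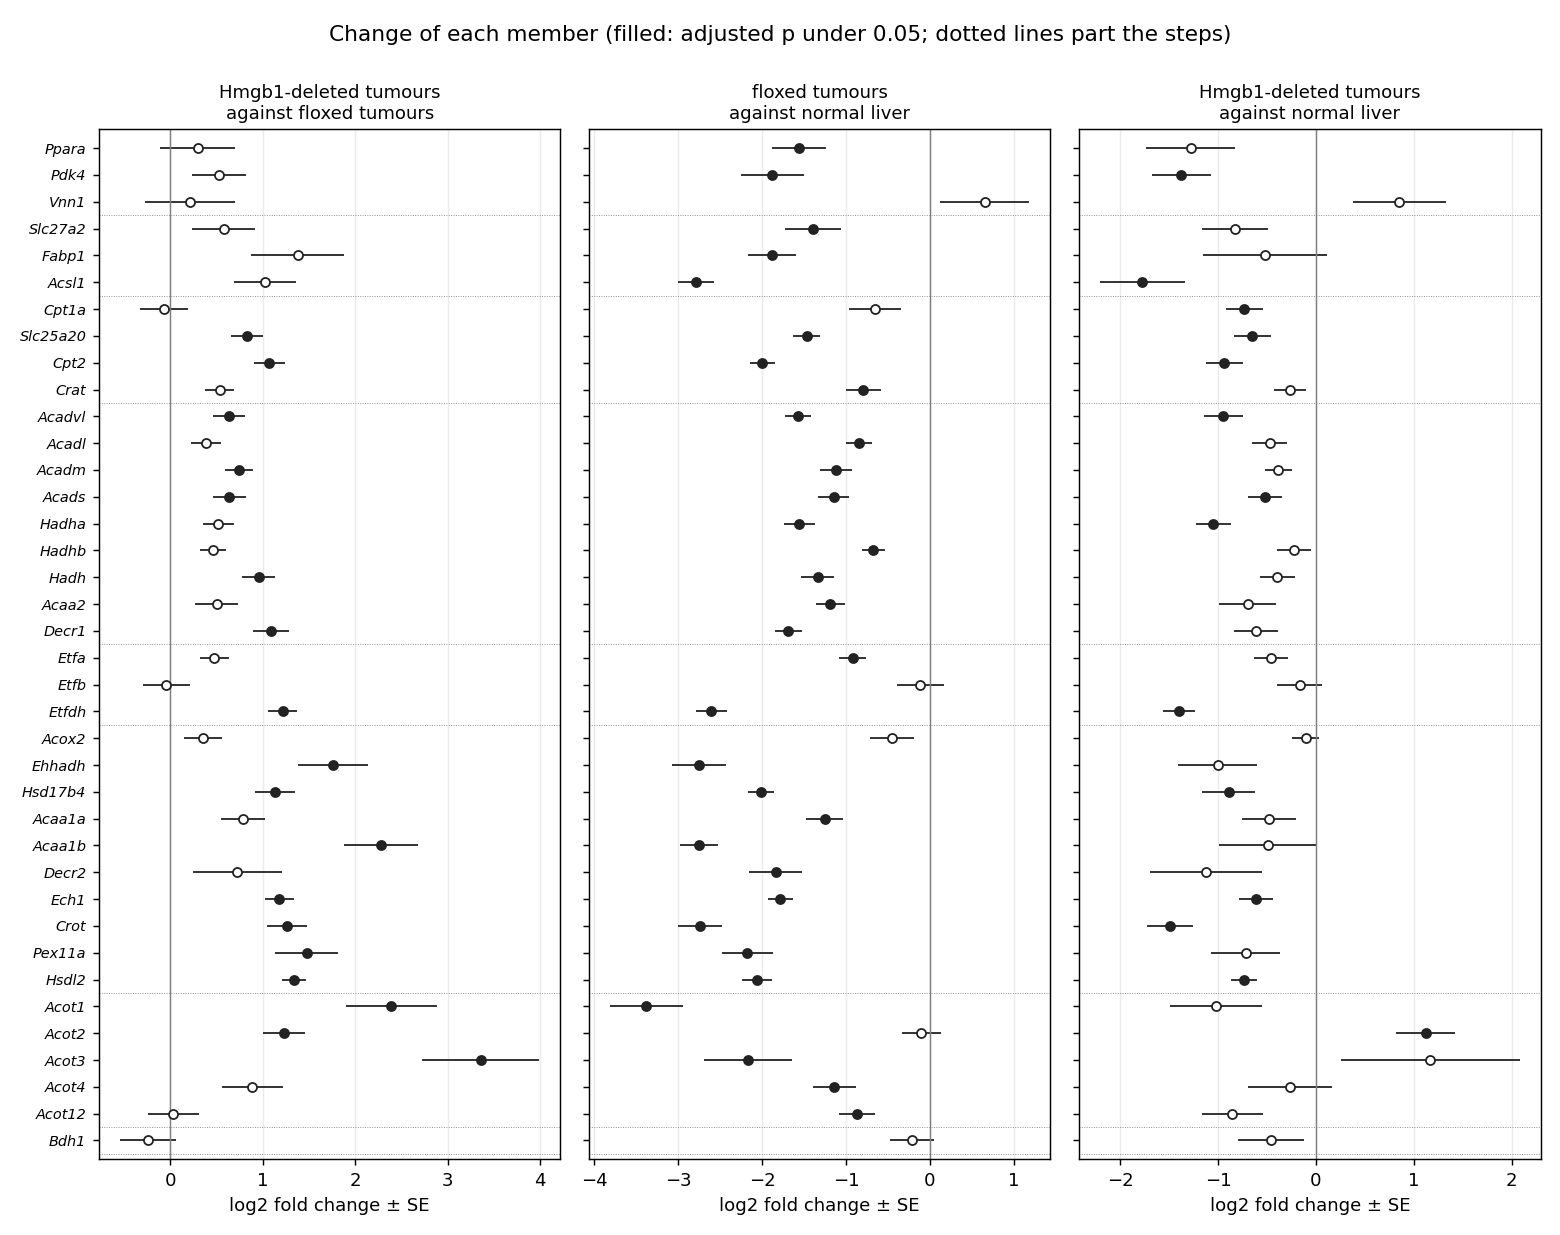
Log2 fold change ± SE of each gene in the 3 comparisons, positive where the group named first is higher, with filled points for an edgeR adjusted p under 0.05 and open points for the rest; dotted lines part the 8 steps. In the left panel 18 points are filled, all to the right of 0, and in the middle panel 32 are filled, all to the left.

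Ppara itself overlapped between the tumour groups. Ppara lay at 70.1 to 304 CPM (median 109.7) in Hmgb1-deleted tumours, at 60.8 to 228 CPM (median 129.9) in floxed tumours and at 383, 344 and 447 CPM in the 3 normal livers. Hmgb1-deleted tumours 3 and 4 had 304 and 285 CPM and the other 4 had at most 113 CPM, so the group's spread was wide. The log2 fold change between the tumour groups was 0.29 ± 0.41 (SE, adjusted p = 0.712), with an SE larger than the difference. Pdk4, a kinase that switches off pyruvate dehydrogenase and is induced in fasting, lay at 5.33 to 13.1 CPM (median 9.87) in Hmgb1-deleted tumours and at 3.14 to 12.2 CPM (median 6.08) in floxed tumours, against 33.4, 27.7 and 13.4 CPM in normal livers. Its tumour groups overlapped as well, at a log2 change of 0.52 ± 0.29 (SE, adjusted p = 0.295). Vnn1, a pantetheinase and a target of PPAR-alpha in liver, ranged from 26.8 to 192 CPM in Hmgb1-deleted tumours and from 18.9 to 194 CPM in floxed tumours, and passed in no comparison.

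The genes of uptake and activation had higher means in Hmgb1-deleted than in floxed tumours and a wide spread. Fabp1 lay at 542 to 7255 CPM (median 2993) in Hmgb1-deleted tumours, at 695 to 1959.8 CPM (median 1267) in floxed tumours and at 3989.9, 4451 and 5752 CPM in the 3 normal livers. Fabp1, the liver fatty acid binding protein, thus had a wide range among the Hmgb1-deleted tumours, with tumour 5 at 542 CPM below every floxed tumour, and its log2 fold change was 1.38 ± 0.50 (SE, adjusted p = 0.112). Per kilobase of the longest coding transcript it was the most abundant of the 38 genes in each group, at 5968 CPM per kilobase in Hmgb1-deleted tumours, 2320.0 in floxed tumours and 8555 in normal livers. Acsl1, the main long-chain acyl-CoA synthetase of liver, fell into separate levels among the Hmgb1-deleted tumours, with 712, 741 and 614 CPM in tumours 3, 4 and 6 and 237, 229 and 240.3 CPM in tumours 1, 2 and 5. Floxed tumours had 167 to 274 CPM (median 246) and normal livers 1759, 1762 and 1243 CPM. The lower 3 Hmgb1-deleted tumours were thus within the floxed range, and the log2 fold change was 1.03 ± 0.34 (SE, adjusted p = 0.0793). Slc27a2, a very-long-chain acyl-CoA synthetase, did not pass either, at 0.57 (adjusted p = 0.32).

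The window around the start of Fabp1, from 250 bases before to 50 after it, is shown for its match to the paired motif of nuclear receptors such as PPAR-alpha. It was the only match among the windows that could be searched. RefSeq's table (GRCm38.p6) had a window for 33 of the 38 genes, 37 windows in all. Capitals mark matches to AGGTCA, the half-site of these receptors, or to the paired motif (DR1), which is AGGNCA followed by any 1 base and AGGNCA again, on either strand; both motifs were searched on both strands and may overlap.
Fabp1, chr6:71199629-71199928, plus strand: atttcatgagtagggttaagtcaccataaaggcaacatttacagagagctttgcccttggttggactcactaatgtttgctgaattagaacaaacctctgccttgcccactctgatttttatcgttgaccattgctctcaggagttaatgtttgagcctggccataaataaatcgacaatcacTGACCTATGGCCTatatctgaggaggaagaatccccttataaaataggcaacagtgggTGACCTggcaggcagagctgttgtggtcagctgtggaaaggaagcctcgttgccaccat
The paired motif was found in 1 of 37 windows, that of Fabp1, and in 0.381% of all 32851 windows of the same length. AGGTCA alone was found in 9 of 37 windows (24.3%), belonging to Slc27a2, Fabp1, Acadm, Acadvl, Cpt1a, Acot3, Acot4 and Acot12, and in 16.3% of all windows. Letters in these windows say nothing about sites farther from the start.

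Of the carnitine shuttle, the transporter and the inner enzyme rose and the outer gate did not pass the test. Cpt1a, the outer-membrane enzyme that controls entry of fatty acids into mitochondria, lay at 196 to 354 CPM (median 266) in Hmgb1-deleted tumours, at 128 to 459.9 CPM (median 266) in floxed tumours and at 480.5, 433 and 449.9 CPM in normal livers. Its tumour groups overlapped almost fully, with a log2 change of -0.07 ± 0.26 (SE, adjusted p = 0.907). Cpt2 lay at 85.6 to 156 CPM (median 110.4) in Hmgb1-deleted tumours, at 41.3 to 62.9 CPM (median 56.9) in floxed tumours and at 242, 220.1 and 196 CPM in the 3 normal livers. Cpt2, which reforms acyl-CoA on the inner side, thus separated the tumour groups, at 2.1 times the floxed level and a log2 change of 1.07 ± 0.17 (SE, adjusted p = 0.0047). Slc25a20 lay at 56.5 to 115 CPM (median 82.0) in Hmgb1-deleted tumours, at 35.1 to 58.9 CPM (median 47.4) in floxed tumours and at 138, 124 and 132 CPM in the 3 normal livers. Slc25a20, the carnitine-acylcarnitine carrier, overlapped between the tumour groups only through Hmgb1-deleted tumour 2 and floxed tumour 2, and its log2 fold change was 0.83 ± 0.18 (SE, adjusted p = 0.0155). Crat, which handles short chains, just missed the threshold at 0.53 ± 0.15 (SE, adjusted p = 0.0527).

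In mitochondrial beta-oxidation 5 of 9 genes rose and all 9 had a positive log2 fold change, from 0.38 to 1.09 with a median of 0.63. Decr1 lay at 129 to 285 CPM (median 173) in Hmgb1-deleted tumours, at 69.7 to 116 CPM (median 88.2) in floxed tumours and at 304, 274 and 296 CPM in the 3 normal livers. Decr1, the 2,4-dienoyl-CoA reductase needed for unsaturated chains, was therefore higher in every Hmgb1-deleted than in every floxed tumour, at 2.12 times the level (log2 fold change 1.09 ± 0.20 SE, adjusted p = 0.00744). Hadh lay at 231 to 369 CPM (median 255) in Hmgb1-deleted tumours, at 97.0 to 179 CPM (median 154) in floxed tumours and at 365, 331 and 420.2 CPM in the 3 normal livers. Hadh, the dehydrogenase for short 3-hydroxyacyl chains, separated the tumour groups too, and Hmgb1-deleted tumour 4 lay within the normal range; the log2 fold change was 0.95 ± 0.18 (SE, adjusted p = 0.00944). Acadm lay at 220.3 to 276 CPM (median 251) in Hmgb1-deleted tumours, at 106 to 183 CPM (median 164) in floxed tumours and at 345, 291 and 355 CPM in the 3 normal livers. Acadm, the medium-chain acyl-CoA dehydrogenase, had the narrowest range among Hmgb1-deleted tumours of these 3, all above the floxed ones, with a log2 change of 0.74 ± 0.15 (SE, adjusted p = 0.0126). Acadvl and Acads, the very-long-chain and short-chain dehydrogenases, rose by 0.63 and 0.64 on the log2 scale (adjusted p = 0.0408 and 0.0492). Acadl, the long-chain dehydrogenase, and Acaa2, the mitochondrial thiolase, did not pass, at 0.38 (adjusted p = 0.167) and 0.50 (adjusted p = 0.212).

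Hadha and Hadhb encode the alpha and beta subunits of the trifunctional protein, which carries out the last 3 steps for long chains. Hadha lay at 179 to 289.6 CPM (median 258) in Hmgb1-deleted tumours, at 125 to 208 CPM (median 173) in floxed tumours and at 556, 512 and 445 CPM in the 3 normal livers. Hadhb lay at 23.6 to 43.6 CPM (median 32.6) in Hmgb1-deleted tumours, at 20.6 to 29.8 CPM (median 23.5) in floxed tumours and at 36.9, 34.0 and 44.4 CPM in the 3 normal livers. Both overlapped between the tumour groups and fell short of the threshold, at log2 fold changes of 0.52 ± 0.17 (SE, adjusted p = 0.073) and 0.46 ± 0.14 (SE, adjusted p = 0.0669). The lower level of Hadhb stands beside a limit of the counting, since 62.4% of the 50-base windows of its longest coding transcript also occur in other annotated genes, mainly the processed pseudogene Gm13910, against 0% for Hadha (GENCODE M21). Both genes start from one stretch of chromosome 5, in opposite directions, and their promoter windows overlap by 228 bases (chr5:30155003-30155230). The window of Hadha is shown because it holds this shared stretch, and it has no capitals because neither motif was found in it.
Hadha, chr5:30154931-30155230, minus strand: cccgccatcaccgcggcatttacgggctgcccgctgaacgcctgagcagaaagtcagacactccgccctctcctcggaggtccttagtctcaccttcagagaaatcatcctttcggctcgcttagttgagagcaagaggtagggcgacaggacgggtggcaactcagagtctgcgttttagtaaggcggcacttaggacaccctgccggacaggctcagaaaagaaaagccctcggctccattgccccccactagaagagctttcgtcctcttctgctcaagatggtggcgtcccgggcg

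Of the electron transfer genes, the dehydrogenase rose and the 2 flavoprotein subunits did not pass. Etfdh lay at 122 to 189.7 CPM (median 155) in Hmgb1-deleted tumours, at 50.8 to 82.4 CPM (median 68.7) in floxed tumours and at 459.6, 419 and 354 CPM in the 3 normal livers. Etfdh, which hands the electrons to ubiquinone, was higher in every Hmgb1-deleted than in every floxed tumour, by 2.32 times, at a log2 change of 1.21 ± 0.15 (SE, adjusted p = 0.00154). All tumours of both groups stayed below the normal livers. Etfa, the alpha subunit, lay at 139.8 to 238 CPM (median 178) in Hmgb1-deleted tumours, at 104 to 159 CPM (median 127) in floxed tumours and at 234, 235 and 272 CPM in normal livers, with a log2 change of 0.47 ± 0.16 (SE, adjusted p = 0.0852). Etfb, the beta subunit, was at -0.05 (adjusted p = 0.939). Its count may be uncertain, because 67.3% of its transcript windows also lie in the overlapping gene model Gm45233 (GENCODE M21). Whether the annotation used for counting held that model was not checked.

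In peroxisomal oxidation 7 of 10 genes rose and all 10 genes had a positive log2 fold change, from 0.35 to 2.28 with a median of 1.22. Hsdl2 lay at 60.8 to 75.1 CPM (median 64.6) in Hmgb1-deleted tumours, at 22.1 to 34.0 CPM (median 25.7) in floxed tumours and at 139, 107 and 92.1 CPM in the 3 normal livers. Hsdl2, a short-chain dehydrogenase of peroxisomes, showed little spread within Hmgb1-deleted tumours and had the smallest p of all 38 genes, at 2.53 times the floxed level (log2 fold change 1.34 ± 0.13 SE, adjusted p = 0.000475). Ech1 lay at 226 to 362 CPM (median 237) in Hmgb1-deleted tumours, at 96.0 to 141 CPM (median 117) in floxed tumours and at 429, 378 and 385 CPM in the 3 normal livers. Ech1, a dienoyl-CoA isomerase, separated the tumour groups likewise, with a log2 change of 1.18 ± 0.15 (SE, adjusted p = 0.00154), and Hmgb1-deleted tumour 4 stood above the other 5. Crot lay at 346 to 636 CPM (median 477) in Hmgb1-deleted tumours, at 137 to 279 CPM (median 207) in floxed tumours and at 1767, 1308 and 1105 CPM in the 3 normal livers. Crot, the octanoyltransferase that lets shortened chains leave peroxisomes, also separated them, at 2.4 times the floxed level (1.26 ± 0.22 SE, adjusted p = 0.00678 on the log2 scale), while staying well under the normal livers. Hsd17b4 lay at 196 to 449 CPM (median 310.0) in Hmgb1-deleted tumours, at 114 to 162 CPM (median 150.2) in floxed tumours and at 609, 593 and 551 CPM in the 3 normal livers. Hsd17b4, the bifunctional protein for branched chains, rose by 1.13 ± 0.21 (SE, adjusted p = 0.00948) on the log2 scale. Ehhadh, the bifunctional protein for straight and dicarboxylic chains, ranged from 99.2 to 359 CPM in Hmgb1-deleted tumours and from 37.3 to 104 CPM in floxed tumours. It overlapped through Hmgb1-deleted tumour 5 alone among those 6 tumours and rose by 1.76 ± 0.38 (SE, adjusted p = 0.0166) on the log2 scale. Pex11a, a protein of peroxisome division, rose by 1.47 ± 0.34 (SE, adjusted p = 0.0213). Acox2, a peroxisomal acyl-CoA oxidase, and Decr2, the peroxisomal dienoyl-CoA reductase, did not pass, at 0.35 (adjusted p = 0.317) and 0.72 (adjusted p = 0.382). Decr2 was lower in Hmgb1-deleted tumour 5, at 27.7 CPM, than in any floxed tumour.

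The thiolase genes Acaa1a and Acaa1b encode close forms of the last enzyme of the peroxisomal cycle, and in mouse the second is the form that responds to PPAR-alpha. Acaa1b lay at 222 to 1422 CPM (median 819) in Hmgb1-deleted tumours, at 117 to 217 CPM (median 155) in floxed tumours and at 1091, 942 and 1279.8 CPM in the 3 normal livers. Every Hmgb1-deleted tumour lay above every floxed tumour, at 4.86 times the level (log2 fold change 2.28 ± 0.40 SE, adjusted p = 0.00697), and tumours 2 and 5 were the lowest of their group. Acaa1a lay at 94.97 to 202 CPM (median 118) in Hmgb1-deleted tumours, at 52.9 to 107 CPM (median 76.6) in floxed tumours and at 179, 161 and 234 CPM in normal livers, and missed the threshold at 0.79 ± 0.24 (SE, adjusted p = 0.0617). A difference between the fold changes of the 2 genes was not tested. Their counts are uncertain, since 35.5% of the 50-base windows of the Acaa1b transcript also occur in Acaa1a and 34% the other way round. The windows around their starts, shown because the transcripts are close copies, were 55.7% identical in a global alignment, and neither holds AGGTCA or the paired motif.
Acaa1b, chr9:119157044-119157343, minus strand: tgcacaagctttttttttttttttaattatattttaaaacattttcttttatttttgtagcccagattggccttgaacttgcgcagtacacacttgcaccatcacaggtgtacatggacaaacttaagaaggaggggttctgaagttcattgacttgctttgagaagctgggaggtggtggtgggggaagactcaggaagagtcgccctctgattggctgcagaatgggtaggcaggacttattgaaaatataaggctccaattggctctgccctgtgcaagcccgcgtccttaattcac
Acaa1a, chr9:119341044-119341343, plus strand: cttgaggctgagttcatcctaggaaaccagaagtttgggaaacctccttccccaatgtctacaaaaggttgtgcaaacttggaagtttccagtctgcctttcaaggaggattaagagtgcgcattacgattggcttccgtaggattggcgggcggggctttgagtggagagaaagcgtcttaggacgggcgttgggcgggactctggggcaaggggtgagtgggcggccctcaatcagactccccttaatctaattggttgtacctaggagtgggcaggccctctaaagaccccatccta

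**Figure D3:**
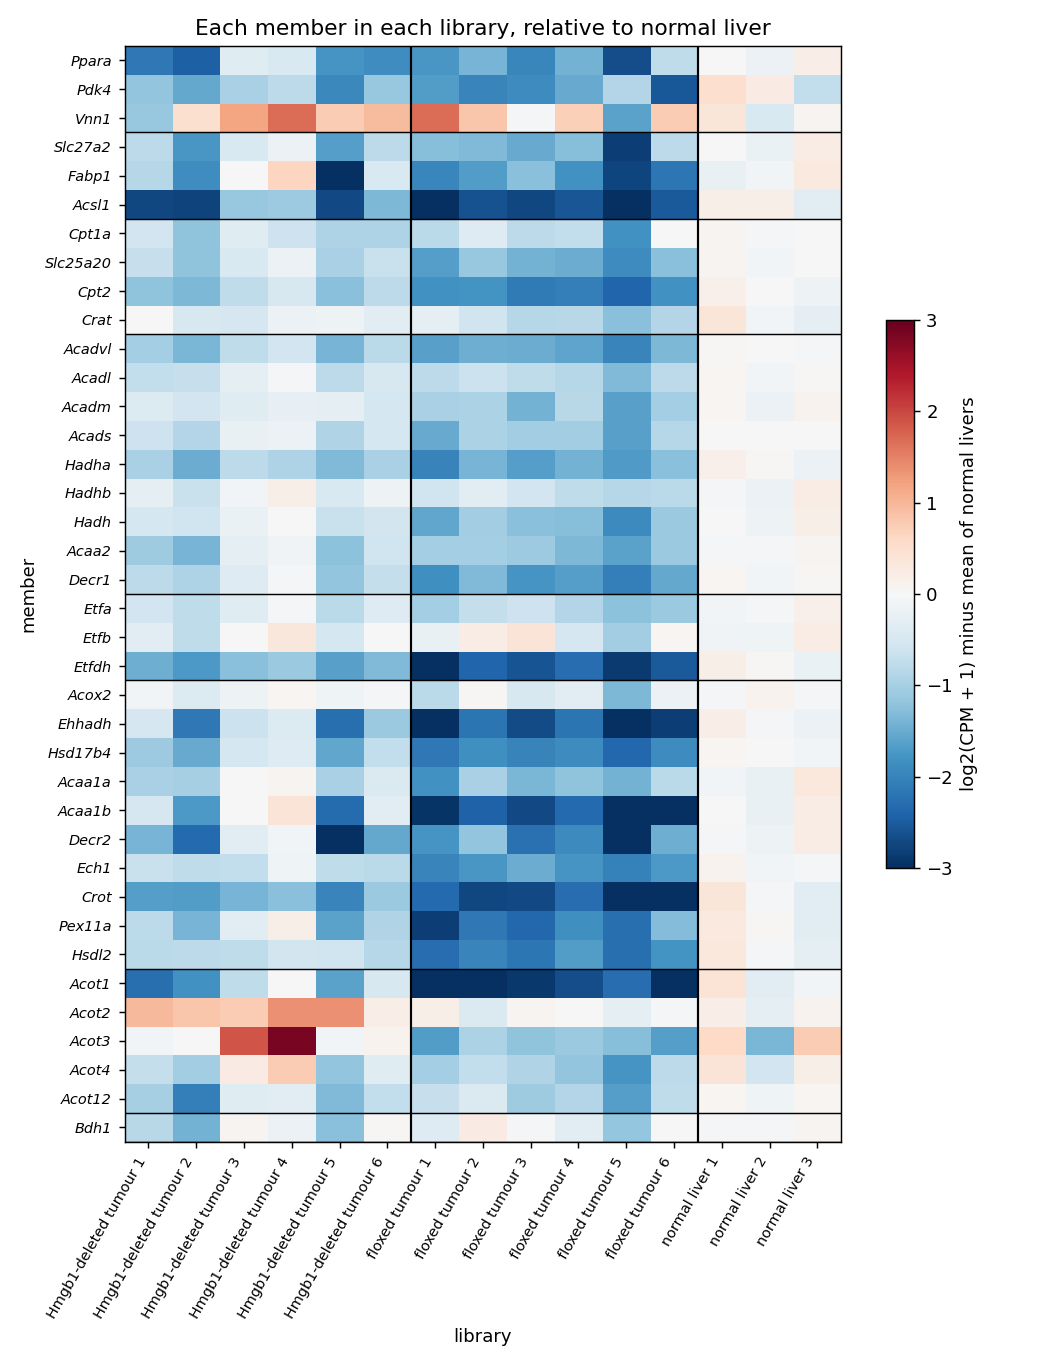
Each gene (rows, by step) in each library (columns, Hmgb1-deleted tumours, floxed tumours and normal livers from left to right), as log2(CPM + 1) minus the mean of the normal livers; the colour scale ends at 3 either way, so larger differences look alike. Most rows are paler in Hmgb1-deleted than in floxed tumours, Acot2 is above the normal mean in all 6 Hmgb1-deleted tumours and Acot3 clearly so in tumours 3 and 4, and Hmgb1-deleted tumours 2 and 5 are darker than 3 and 4 in most rows.

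Acyl-CoA thioesterases release free fatty acids from acyl-CoA, and 3 of 5 rose, all 3 at low levels. Acot3 lay at 4.10 to 38.2 CPM (median 4.69) in Hmgb1-deleted tumours, at 0.696 to 1.798 CPM (median 1.31) in floxed tumours and at 7.27, 1.10 and 8.22 CPM in the 3 normal livers. Acot3, a peroxisomal form, was therefore higher in every Hmgb1-deleted than in every floxed tumour, with tumours 3 and 4 far above the other 4, which lay between 4.10 and 4.88 CPM. Its log2 change of 3.36 ± 0.64 (SE, adjusted p = 0.00948) was the largest of the 38, and normal liver 2 stood below the other normal livers. Acot2 lay at 5.21 to 13.0 CPM (median 9.07) in Hmgb1-deleted tumours, at 3.03 to 5.12 CPM (median 4.34) in floxed tumours and at 5.20, 3.42 and 4.78 CPM in the 3 normal livers. Acot2, the mitochondrial form, separated the tumour groups with a log2 change of 1.23 ± 0.23 (SE, adjusted p = 0.00833), and its normal livers lay in and near the floxed range. Acot1, the cytosolic form, lay at 4.83 to 27.1 CPM (median 11.8) in Hmgb1-deleted tumours, at 0.596 to 4.66 CPM (median 2.43) in floxed tumours and at 36.0, 21.0 and 25.2 CPM in normal livers. It separated the tumour groups narrowly, since Hmgb1-deleted tumour 1 had 4.83 CPM and floxed tumour 5 4.66 CPM, and the log2 fold change was 2.39 ± 0.49 (SE, adjusted p = 0.0131). Acot4, a peroxisomal form, and Acot12, which acts on acetyl-CoA, did not pass, at 0.89 (adjusted p = 0.12) and 0.03 (adjusted p = 0.965). Acot1 to Acot4 lie in one cluster on chromosome 12, and Acot1 and Acot2 may share reads, because 23.7% of Acot1 windows occur in Acot2. The starts of the 3 genes that rose are shown because all 3 are in this cluster; they were 51.7% identical for Acot1 and Acot2 and 51.3% for Acot3 and Acot1, and Acot3 alone of them holds AGGTCA, on the minus strand.
Acot1, chr12:84009252-84009551, plus strand: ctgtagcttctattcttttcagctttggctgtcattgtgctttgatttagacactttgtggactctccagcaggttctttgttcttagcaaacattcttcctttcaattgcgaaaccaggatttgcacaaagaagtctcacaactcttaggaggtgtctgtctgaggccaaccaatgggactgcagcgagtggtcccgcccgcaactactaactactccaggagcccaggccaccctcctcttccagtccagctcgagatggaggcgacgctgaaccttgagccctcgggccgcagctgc
Acot2, chr12:83987611-83987910, plus strand: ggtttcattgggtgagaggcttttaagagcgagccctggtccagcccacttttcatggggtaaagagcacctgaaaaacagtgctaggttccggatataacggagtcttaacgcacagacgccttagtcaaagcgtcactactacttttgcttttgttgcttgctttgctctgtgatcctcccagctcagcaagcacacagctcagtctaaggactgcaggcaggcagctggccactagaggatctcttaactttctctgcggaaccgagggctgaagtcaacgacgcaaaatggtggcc
Acot3, chr12:84051894-84052193, plus strand: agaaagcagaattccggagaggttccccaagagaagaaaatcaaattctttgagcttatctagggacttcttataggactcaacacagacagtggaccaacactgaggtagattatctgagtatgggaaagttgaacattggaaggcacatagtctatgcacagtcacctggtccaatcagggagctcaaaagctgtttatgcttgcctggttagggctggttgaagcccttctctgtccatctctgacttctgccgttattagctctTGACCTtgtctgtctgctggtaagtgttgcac

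Ketogenesis was represented by Bdh1, which makes 3-hydroxybutyrate in the last step. Bdh1 lay at 122 to 350.2 CPM (median 237) in Hmgb1-deleted tumours, at 146 to 391 CPM (median 291) in floxed tumours and at 323, 315 and 349 CPM in the 3 normal livers. The tumour groups overlapped, with Hmgb1-deleted tumours 3, 4 and 6 at 350.2, 289 and 339 CPM and tumours 1, 2 and 5 at 186, 122 and 137 CPM. The log2 fold changes were -0.24 ± 0.30 (SE, adjusted p = 0.684) for Hmgb1-deleted against floxed tumours, -0.21 (adjusted p = 0.516) for floxed tumours against normal liver and -0.46 (adjusted p = 0.303) for Hmgb1-deleted tumours against normal liver. Among the other ketone body genes listed, 2 of 8 rose between the tumour groups, one being Acat1, the mitochondrial acetoacetyl-CoA thiolase. Acat1 was at 356 CPM ± 47.6 in the 6 Hmgb1-deleted tumours, at 199 CPM ± 37.4 in the 6 floxed tumours and at 593 CPM ± 18.7 in the 3 normal livers (each mean ± SD), with a log2 change of 0.86 ± 0.16 (SE, adjusted p = 0.00865) between the tumour groups.

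Set against normal liver, floxed tumours had less RNA of most of the 38 genes. Of the 38 genes 32 fell and 0 rose, where 23.8% of 13784 genes tested were lower and 24.9% higher, and the median log2 fold change was -1.51, beside 0.06 over all genes. In either direction 48.7% of all genes tested were called, and the log2 fold change was above 0 in 1 of the 38, against 52.8% of all genes tested. In edgeR 0 genes of the 38 had an unadjusted p under 0.05 for a rise, and DESeq2 and voom called 0 rises and 32 falls each. In 30 of the 38 every floxed tumour lay below every normal liver, which held for 23.4% of all genes tested. All 9 genes of mitochondrial beta-oxidation fell, as did 9 of 10 in peroxisomal oxidation, 4 of 5 thioesterases, all 3 of uptake and activation, 3 of 4 in the carnitine shuttle, 2 of 3 in electron transfer, and Ppara and Pdk4. The 6 that did not pass were Cpt1a, Vnn1, Etfb, Acox2, Acot2 and Bdh1. The 5 with the smallest p were Etfdh, Cpt2, Hsd17b4, Acsl1 and Acaa1b. Their levels in floxed tumours were 6.08, 3.99, 4.03, 6.9 and 6.76 times lower in this order. The log2 fold change was -2.60 ± 0.18 (SE, adjusted p = 5.23e-06) for Etfdh and -2.76 ± 0.23 (SE, adjusted p = 1.23e-05) for Acaa1b. The largest fall of the 38 was that of Acot1, a gene of low counts in floxed tumours, at -3.38 ± 0.43 (SE, adjusted p = 0.000161), and Ppara was at -1.56 ± 0.32 (SE, adjusted p = 0.00281). Upper-quartile factors, which moved the median of all genes to 0.23, called the same number of members, and over all genes turned the split from 3437 higher and 3277 lower to 4363 and 2509.

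Hmgb1-deleted tumours were set against normal liver in the same way. Of the 38 genes 13 fell and 1 rose, where 16.6% of 13784 genes tested were lower and 18.1% higher, and the median log2 fold change was -0.63, beside 0.05 over all genes. In either direction 34.7% of all genes tested were called, and the log2 fold change was above 0 in 3 of the 38, against 52.7% of all genes tested. Both comparisons with normal liver share the same 3 normal livers, so their values are set side by side and not compared. In 18 of the 38 every Hmgb1-deleted tumour lay below every normal liver, which held for 19.1% of all genes tested, and in 1 every one lay above, which held for 18.4%. The 5 with the smallest p were Etfdh (-1.40, adjusted p = 0.000922), Crot (-1.49, adjusted p = 0.0026), Hadha (-1.05, adjusted p = 0.00358), Hsdl2 (-0.73, adjusted p = 0.00488) and Cpt2 (-0.94, adjusted p = 0.00665), given as log2 fold changes. Acsl1, Cpt1a, Pdk4, Acadvl, Acads, Slc25a20, Hsd17b4 and Ech1 fell as well, from -1.77 for Acsl1 to -0.52 for Acads. Of these, Acads, Cpt1a, Slc25a20, Hsd17b4 and Ech1 missed the threshold whichever 1 of the 3 normal livers was left out, Acsl1 without normal liver 1 or 2, and Pdk4 without normal liver 1. Acads missed it in 13 of 22 alternatives. Acadvl, Etfdh, Crot, Hadha and Cpt2 passed in all 22. Ppara was at -1.28 ± 0.45 (SE, adjusted p = 0.0529) and just missed the threshold although all 6 tumours lay below the 3 normal livers. Acot2 was the 1 gene that rose, by 1.12 ± 0.30 (SE, adjusted p = 0.0183), with each Hmgb1-deleted tumour above each normal liver by a margin that was narrow for tumour 6 (5.21 CPM beside 5.20 CPM in normal liver 1). The call on Acot2 was lost without normal liver 1, 2 or 3 (edgeR adjusted p = 0.0542, 0.0878 and 0.0551), so that 0 genes rose then.

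The number of changes from normal liver rested on which libraries were used. Leaving out Hmgb1-deleted tumour 4 gave 23 changes, leaving out 3 and 4 gave 28 and leaving out 3, 4 and 6 gave 32, and it was 6, 7 and 8 without normal liver 1, 2 or 3, when 2 normal livers remained. DESeq2 called 1 gene higher and 22 lower and voom 1 and 24. On library totals without a factor, which moved the median of all genes to 0.33, 1 was higher and 8 lower. Over all genes the split of 2492 higher and 2295 lower became 3389 and 1578 with upper-quartile factors and 2967 and 1062 on library totals.

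In the order of group means, 32 of the 38 genes had normal liver above Hmgb1-deleted tumours and these above floxed tumours, an order found in 27.9% of the genes tested. Cpt1a, Etfb and Bdh1 had their lowest mean in Hmgb1-deleted tumours. Acot2 and Acot3 had their highest mean there with floxed tumours lowest, and Vnn1 had its highest mean there with normal livers lowest. Between neighbours in this order, 20 of 38 genes did not pass between the tumour groups and 24 did not pass between Hmgb1-deleted tumours and normal liver, although 27 and 23 of the 38 had an unadjusted p under 0.05.

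**Figure D4:**
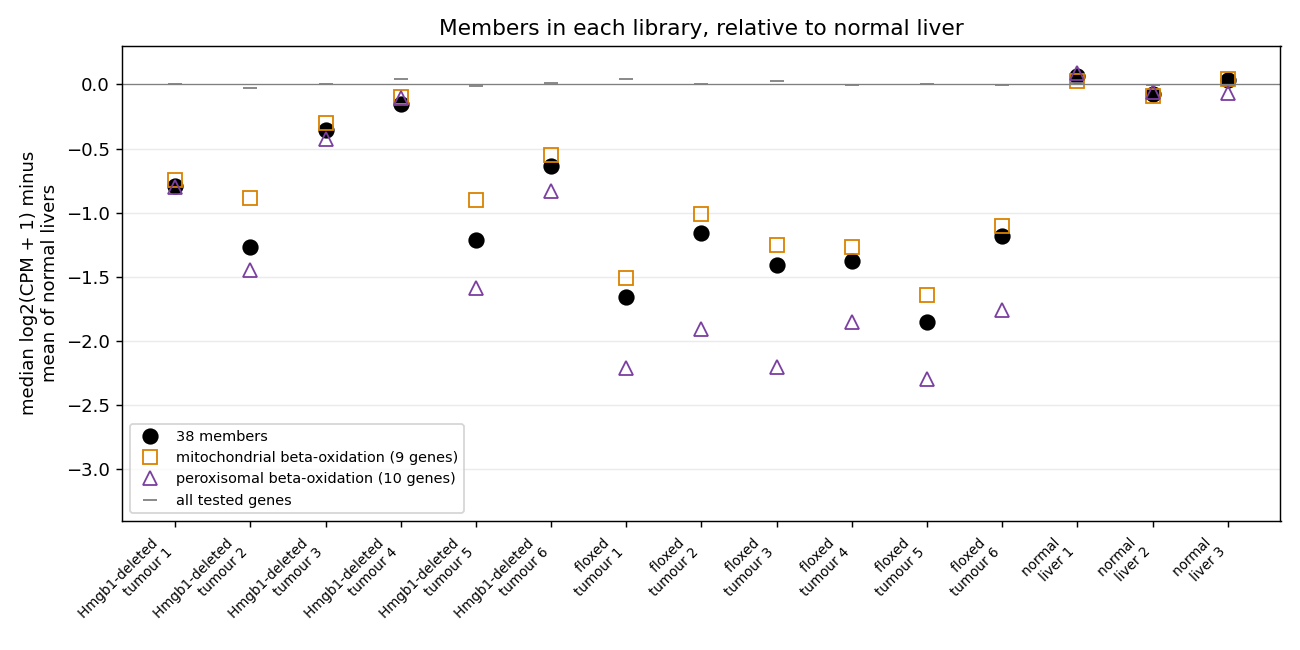
Median over the 38 genes, over the 9 genes of mitochondrial beta-oxidation and over the 10 of peroxisomal oxidation in each library, as log2(CPM + 1) minus the mean of the normal livers, with the median of all tested genes as a dash. Hmgb1-deleted tumours spread from -1.27 to -0.15 for the 38 genes and floxed tumours from -1.85 to -1.16, while all tested genes stay near 0.

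The tumours of each group also differed among themselves. Relative to the mean of the normal livers, the median of log2(CPM + 1) over the 38 genes was -0.79, -1.27, -0.36, -0.15, -1.21 and -0.64 in Hmgb1-deleted tumours 1 to 6. It was -1.66, -1.16, -1.41, -1.38, -1.85 and -1.18 in floxed tumours 1 to 6, and between -0.08 and 0.06 in the normal livers. Hmgb1-deleted tumours 2 and 5 thus lay among the floxed tumours on this median, and the other 4 lay above all of them. The median of all tested genes stayed between -0.03 and 0.04 in every library. Among Hmgb1-deleted tumours the same median ran from -1.59 in tumour 5 to -0.11 in tumour 4 for the peroxisomal genes and from -0.90 in tumour 5 to -0.10 in tumour 4 for the mitochondrial ones. Hmgb1-deleted tumour 4 was the highest of its group for 32 of the 38 genes. Tumours 3 and 4 were the 2 highest for 27 genes and tumours 2 and 5 the 2 lowest for 25. In the floxed group tumour 5 was the lowest for 27 genes and tumour 2 the highest for 15.

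Other genes of the pathway were counted from lists drawn up beside the 38. The list of mitochondrial oxidation also held genes of branched-chain amino acid breakdown, such as Ivd and Acadsb, and of propionate breakdown, such as Pcca, Pccb and Mut. Between the tumour groups, of 23 tested genes of mitochondrial oxidation 9 rose and 1 fell, of 30 peroxisomal genes 9 rose and 0 fell, and of 18 further PPAR-alpha targets 5 rose and 0 fell in edgeR. At an unadjusted p under 0.05, 1 peroxisomal gene and 1 PPAR-alpha target were lower, and DESeq2 and voom each called 1 peroxisomal gene and 0 targets lower. Acad9, an acyl-CoA dehydrogenase also needed for complex I, was at 44.5 CPM ± 6.03 in Hmgb1-deleted tumours, 24.7 CPM ± 2.26 in floxed tumours and 44.2 CPM ± 2.94 in normal livers (SD, n = 6, 6 and 3), a log2 change of 0.87 ± 0.11 (SE, adjusted p = 0.00131) between the tumour groups. Hacl1, which shortens 2-hydroxylated and branched chains in peroxisomes, was at 123 CPM ± 59.5, 29.3 CPM ± 7.05 and 472 CPM ± 143 in the same groups and rose by 2.08 ± 0.32 (SE, adjusted p = 0.00475) on the log2 scale. Its mean in Hmgb1-deleted tumours was still far under that of normal liver. Eci2, an enoyl-CoA isomerase, Mgll, the monoglyceride lipase, and Aldh3a2, a fatty aldehyde dehydrogenase, rose by 1.13, 1.73 and 1.67 (adjusted p = 0.0114, 0.000777 and 0.00675).

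A further list (here the partner list) held partners and coregulators of PPAR-alpha and related nuclear receptors. Of its 18 tested genes 3 rose in edgeR, given as log2 fold changes. They were Nr1h4, the bile acid receptor FXR (0.86, adjusted p = 0.0211), Pparg, the adipose relative of PPAR-alpha (1.22, adjusted p = 0.0246), and Sirt3, a mitochondrial deacetylase (0.78, adjusted p = 0.0258). In this list 0 fell in edgeR, 1 at an unadjusted p under 0.05 and 0 in DESeq2 and voom. The partner Rxra was at 240 CPM ± 77.6 in Hmgb1-deleted tumours and 228 CPM ± 86.6 in floxed tumours (mean ± SD, n = 6 each). The coactivator Ppargc1a was at 4.73 CPM ± 2.23 and 4.70 CPM ± 1.99 in the same order. Sirt3, Rxra and Ppargc1a, like Cpt1c, are named after their values were seen. Of 14 other genes of uptake and activation 0 rose and 1 fell in edgeR, where 1 was higher and 4 lower at an unadjusted p under 0.05, 0 and 4 in DESeq2 and 0 and 3 in voom. The median log2 fold change of this list was -0.33, beside 0.02 over all genes tested. The 1 that fell was Fabp5, a fatty acid binding protein of skin and macrophages, at 15.2 CPM ± 8.78 in Hmgb1-deleted tumours, 73.8 CPM ± 49.3 in floxed tumours (mean ± SD, n = 6 each) and 3.98 to 15.1 CPM in the 3 normal livers (log2 fold change -2.26 ± 0.55 SE, adjusted p = 0.0253). Acsl4, the arachidonate-preferring synthetase, did not pass at -0.75 (adjusted p = 0.0828). The fall among the mitochondrial genes was that of Cpt1c, the brain form of the carnitine enzyme, at low levels (-1.86, adjusted p = 0.0243). Fabp5 and Cpt1c were higher in floxed tumours than in normal livers, by 2.74 ± 0.73 (SE, adjusted p = 0.011) and 2.61 ± 0.60 (SE, adjusted p = 0.00491) on the log2 scale.

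The same lists were counted against normal liver, where 16.6% of all genes tested were lower and 18.1% higher in Hmgb1-deleted tumours, and 23.8% lower and 24.9% higher in floxed tumours. In Hmgb1-deleted tumours 11 of 23 genes of mitochondrial oxidation fell and 1 rose, and 16 of 30 peroxisomal genes fell and 0 rose. Of the partner list, 8 of 19 genes fell there and 0 rose. In floxed tumours 19 of 23 genes of mitochondrial oxidation fell and 2 rose, and 26 of 30 peroxisomal genes fell and 1 rose. Of the partner list, 12 of 19 genes fell there and 0 rose. Of 18 further PPAR-alpha targets 6 fell and 3 rose in Hmgb1-deleted tumours, and 11 fell and 3 rose in floxed tumours. Of 8 other ketone body genes 2 fell and 1 rose in Hmgb1-deleted tumours, and 3 fell and 2 rose in floxed tumours. Of 14 other genes of uptake and activation 1 fell and 1 rose in Hmgb1-deleted tumours. In floxed tumours 3 of these 14 fell and 4 rose, with a median log2 fold change of 0.33. These counts are from edgeR, and rises by other rules are given where it called 0. Among peroxisomal genes in Hmgb1-deleted tumours, 1 rose at an unadjusted p under 0.05, 0 in DESeq2 and 1 in voom. In the partner list 1 rose in Hmgb1-deleted tumours at an unadjusted p under 0.05, 1 in DESeq2 and 1 in voom. For floxed tumours the partner list had 0 rises at an unadjusted p under 0.05, 0 in DESeq2 and 0 in voom.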

How the data were processed

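RNA-seq libraries of 12 liver tumours and 3 normal livers were used. The authors deposited whole-number read counts per gene symbol for 23284 symbols. The submitters' processing notes name the build mm9, the aligner TopHat2 2.1.0 over Bowtie2 2.2.4, the counter HTSeq 0.6.1 and, for base calls, bcl2fastq 1.8.4. Settings and strand handling: not given in the sources used here. Reads shared by close copies or overlapping genes can therefore be lost or split.

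Groups follow the sample labels. Each pair of groups was fitted on its own libraries with edgeR 4.0.16 (R 4.3.3; filterByExpr, TMM factors, robust quasi-likelihood test), with Benjamini-Hochberg adjustment over all genes tested and a threshold of 0.05, and the genes of the pathway were read from that fit. The scripts were tested on simulated data. Alternatives were other scaling, other filters, DESeq2 1.42.0, voom with sample weights (limma 3.58.1), 1 fit of all 15 samples, a replicate block and leaving out libraries; leaving out several tumours together was chosen after seeing the data. Levels are CPM with TMM factors. The precision of a level is set by the spread between libraries, given as the range or SD.

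Full values are given for Ppara, Cpt1a, Bdh1, the genes with the smallest p in each step (3 in steps with over 5 genes, otherwise 2) and the 5 with the smallest p in each comparison with normal liver; a few further genes were added after their values were seen. From each list of other pathway genes, the 2 with the smallest p were to be named; some genes of the pathway are not reported here by name. The members and lists were chosen with earlier results of these data known. Promoter windows come from RefSeq (GRCm38.p6), transcripts from GENCODE M21, both on another build than the counts, so they were joined by symbol only; promoter pairs were aligned with Biopython 1.88.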

Additional observations from a re-analysis of the deposited data

Results flagged for a closer look

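Over 76 groups of 6 tumours (38 genes in 2 groups each), 2 held a library far from the other 5, where chance flags about 1 in 20 groups. Ech1 was at 362 CPM in Hmgb1-deleted tumour 4, and the nearest of the other Hmgb1-deleted tumours had 248 CPM, a gap of 0.837 of the group's range. Acadl was at 105 CPM in floxed tumour 5, and the nearest of the other floxed tumours had 146 CPM, a gap of 0.636 of the range. These 2 tumours were also the highest of the Hmgb1-deleted group for 32 of the 38 genes and the lowest of the floxed group for 27.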

How the results depend on the processing

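For single genes of the 38, 0 changes that passed the test reversed under any alternative run; among those that did not pass, the fold change turned sign under at least 1 alternative in 8 genes between the tumour groups (Ppara from 0.29 to as low as -0.56), 2 when floxed tumours and 6 when Hmgb1-deleted tumours were set against normal liver. Counting each gene under each alternative, Hmgb1-deleted against floxed tumours gave 834 values on the same side of the threshold, 40 that missed it and 38 that newly passed. Floxed tumours against normal liver gave 714, 3 and 5, and Hmgb1-deleted tumours against normal liver 714, 45 and 77. Between the tumour groups, 1045 genes changed, and 1954 did with DESeq2, 1629 in 1 fit of all libraries, 422 without Hmgb1-deleted tumours 3 and 4, and 589 to 1054 with 1 library left out (589 without Hmgb1-deleted tumour 4). Of the 38, 18 changed there, and 29 did on library totals, 11 without tumours 3 and 4, 8 without 3, 4 and 6, and 15 to 19 with 1 library left out. For floxed tumours against normal liver, leaving out 1 library gave 4859 to 6966 genes and 31 to 33 of the 38. For Hmgb1-deleted tumours against normal liver it gave 2113 to 4912 genes and 6 to 23 of the 38; 14 of the 38 changed with all libraries, 9 on library totals, 23 with DESeq2, 25 with voom, 28 without tumours 3 and 4 and 32 without 3, 4 and 6. Apart from the smaller number of libraries where some were left out, the cause was not tested. The replicate numbers were checked for pairing, though such a check cannot show whether same-numbered samples were handled together. Between the tumour groups the deviations of same-numbered tumours correlated at 0.092, -0.266, 0.163, 0.106, 0.236 and 0.112. Hmgb1-deleted tumours 1 and 5 matched the floxed tumour of their own number best, and the others did not. With a replicate block, 860 genes and 17 of the 38 changed between the tumour groups. Against normal liver the replicate block used numbers 1 to 3 only and gave 6579 genes and 32 of the 38 for floxed tumours and 3052 and 12 for Hmgb1-deleted tumours, where the same libraries without the block gave 6886 and 33, and 3679 and 13. Depth limits Acot1, Acot2 and Acot3 most, at under 6 CPM in every floxed tumour.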
